A study of Mus musculus with 4 samples.

Results

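Guanylate binding proteins (GBPs) and immunity-related GTPases (IRGs) are GTP-hydrolysing enzymes that were followed here in mouse primary myotubes with and without EDA-A2. The set held 10 genes chosen by name, 5 GBPs (Gbp2, Gbp3, Gbp5, Gbp7 and Gbp9) and 5 IRGs (Irgm1, Irgm2, Igtp, Iigp1 and Gm12185), out of 53647 genes in the count tables. All 10 passed the filter on low counts. The rule that names them uses no measured value, but they were chosen with earlier results of these data known. Polyadenylated RNA was sequenced from 4 libraries of wild-type myotubes, 2 labelled Control and 2 labelled EDA-A2. Myoblasts came from limb muscle of pups aged 2 to 3 days and were left to form myotubes over 48 h, with the harvest at 72 h. The EDA-A2 libraries had received recombinant EDA-A2, a ligand of the TNF receptor family member EDA2R, at 250 ng/mL for the last 24 h, while the Control libraries carry no agent in their labels and share every other condition. The study's methods use sample size for biological replicates in general, but whether the libraries of a group came from separate cultures or animals is not given in the labels, so p-values measure the spread between these libraries, which may be technical.

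Both families are textbook interferon-stimulated genes, switched on mostly by interferon-gamma, in part through the transcription factor IRF1. GBPs assemble on the membranes of vacuoles that hold microbes, or on microbes themselves, and help to break them open. IRG proteins fall into effectors, such as Iigp1, which load onto such vacuoles, and regulators, Irgm1, Irgm2 and Igtp, which sit on the cell's own membranes and keep the effectors inactive there. In mouse, many of the genes lie in tandem arrays on a few chromosomes.

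Depth was nearly equal, at 29444155 to 29746863 counts on genes per library. A count of 0 allows up to 3 counts, or 0.0993 to 0.104 CPM (counts scaled to a common library total), which covers counting error only. The 2 libraries of a group were not copies of each other, with a chi-square per gene of 9.94 between the Control libraries and 4.73 between the EDA-A2 libraries. Myotube markers were abundant in every library. Over 8 genes they summed to 21332 and 20148 CPM in Control and to 15483 and 15671 CPM in EDA-A2. All 8 log2 fold changes were below 0, with a median of -0.21. An unadjusted p under 0.05 was found in 5 of the 8, and 2, Myh3 and Acta1, were called lower by edgeR. Of 8 macrophage markers, 3 were testable, none was called by edgeR and 2 (Itgam and Cd14) had an unadjusted p under 0.05. The summed level of the 8 was 3.10 and 3.54 CPM in Control and 5.30 and 4.42 CPM in EDA-A2. Fcgr1 was at 0 in all 4 libraries, Adgre1 had counts of 0, 1, 0 and 0 and Ptprc of 0, 2, 1 and 1, while Itgam had 18, 18, 39 and 32. Markers of T and NK cells summed to 0.430 to 1.09 CPM, with Cd4, Cd8a, Ncr1 and Nkg7 at 0 and Trac at 10 to 20 counts. Endothelial markers summed to 4.94 to 6.22 CPM with Emcn at 0. The 2 tested, Vwf (109, 124, 150 and 141) and Cdh5 (14, 21, 22 and 25), were higher in both EDA-A2 libraries and not called. Fibroblast markers summed to 1635 to 1782 CPM with Lum and Thy1 at 0. Of 5 fibroblast markers tested, none was called by edgeR. An unadjusted p under 0.05 was found in 2, Col1a1 (log2 fold change -0.46) and Dcn (0.48). Cd68 (54, 63, 81 and 69) and Cd14 (11, 17, 30 and 26) were, like Itgam, higher in both EDA-A2 libraries, while Csf1r (3, 1, 8 and 3) overlapped and Lyz2 had 3, 2, 1 and 2. The summed macrophage level was thus higher in EDA-A2, as were the GTPases, and the summed myotube level was lower. The part of either in the results was not tested. In bulk RNA, more cells of a type and more RNA per cell cannot be told apart.

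The regulatory letters near the start of these genes are shown first, because binding of interferon-activated factors there is the textbook route by which both families are induced. The 300 bases before each annotated start of a protein-coding transcript were searched on both strands for the core of the interferon-stimulated response element (ISRE, GAAANNGAAA), which IRF proteins read, and for the gamma-activated sequence (GAS, TTCNNNGAA), named for its response to interferon-gamma. An ISRE core stood there in 8.34% of 21594 protein-coding genes, and in Gbp3, Gm12185, Igtp, Iigp1, Irgm1 and Irgm2. A GAS stood there in 17.1% of genes, and in Gbp5, Gbp7, Gm12185, Igtp, Iigp1 and Irgm2. Genes with several annotated starts had more windows to hold a match. Gbp2 and Gbp9 held neither. None of the 10 held GGGNNTTNCC, the only NFκB letters searched for, which 9.33% of genes held. Other forms of an NFκB site were not searched for, so whether the members lack such sites was not tested. The motifs can overlap one another, and a match is a description of letters, not a binding site.

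A GAS followed after 2 bases by an ISRE core occurred before a start in 4 of the 21594 genes (0.0185%), an arrangement that was noticed after the sequences had been read. The 4 were Irgm2, Igtp, Gm12185 and Tgtp2, all related IRG genes of chromosome 11. Their stretches of 30 bases are given 5′ to 3′ on the gene's strand, from GRCm39, with both motifs in capitals.
Irgm2 (chr11:58105723-58105752, plus strand): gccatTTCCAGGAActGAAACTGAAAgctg
Igtp (chr11:58090332-58090361, plus strand): gccatTTCTAGGAActGAAACTGAAAgctg
Gm12185 (chr11:48818071-48818100, minus strand): gccatTTCCAGGAAtaGAAAGTGAAAccta
Tgtp2 (chr11:48955096-48955125, minus strand): gccatTTCCAGGAAtcGAAACCGAAAccta
The stretch of Igtp matched that of Irgm2 at 29 of 30 bases, and those of Gm12185 and Tgtp2 each matched it at 25. They lie 37 to 66 bases before an Irgm2 start, 42 to 71 before an Igtp start, 85 to 114 before a Gm12185 start and 65 to 94 before the Tgtp2 start. That of Igtp is also covered by annotated exons, and it lies before an upstream start of Irgm2 as well, with its GAS 107 to 99 and its ISRE core 96 to 87 bases before that start.

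In the other members whose stretches are shown, the capitals again mark the matches. Irgm1 has a pair of overlapping ISRE cores, Gbp3 a pair of overlapping ISRE cores read on the opposite strand, Gbp7 a pair of GAS and Gbp5 1 GAS. Those of Irgm1, Gbp3 and Gbp7 lie within annotated exons.
Irgm1 (chr11:48762255-48762284, minus strand): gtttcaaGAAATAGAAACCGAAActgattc
Gbp3 (chr3:142265753-142265782, plus strand): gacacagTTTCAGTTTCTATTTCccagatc
Gbp7 (chr3:142235990-142236019, plus strand): tTTCCAGGAAaagcagaagcTTCTCAGAAa
Gbp5 (chr3:142202439-142202468, plus strand): ttgtgggcaacTTCTGGGAAattagttcag

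Transcripts of 7 of the 10 members rose with EDA-A2 and none fell (edgeR's quasi-likelihood test, Benjamini-Hochberg adjusted p under 0.05 over 15173 genes). Over all genes tested, 2.45% were called higher and 2.13% were called lower, and 2372 had an unadjusted p under 0.05. The genes that rose were Gbp2, Gbp3 and Gbp7 among the GBPs, and Irgm1, Irgm2, Igtp and Gm12185 among the IRGs. The median log2 fold change of the 10 members was 0.63, and that of all genes tested was -0.0021. Both EDA-A2 libraries lay above both Control libraries in 8 members and the groups overlapped in 2, Gbp9 and Iigp1, where 22.7% of all genes tested had EDA-A2 above. The members' counts summed to 2545 and 2397 under Control and to 3711 and 3681 under EDA-A2.

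**Figure D1:**
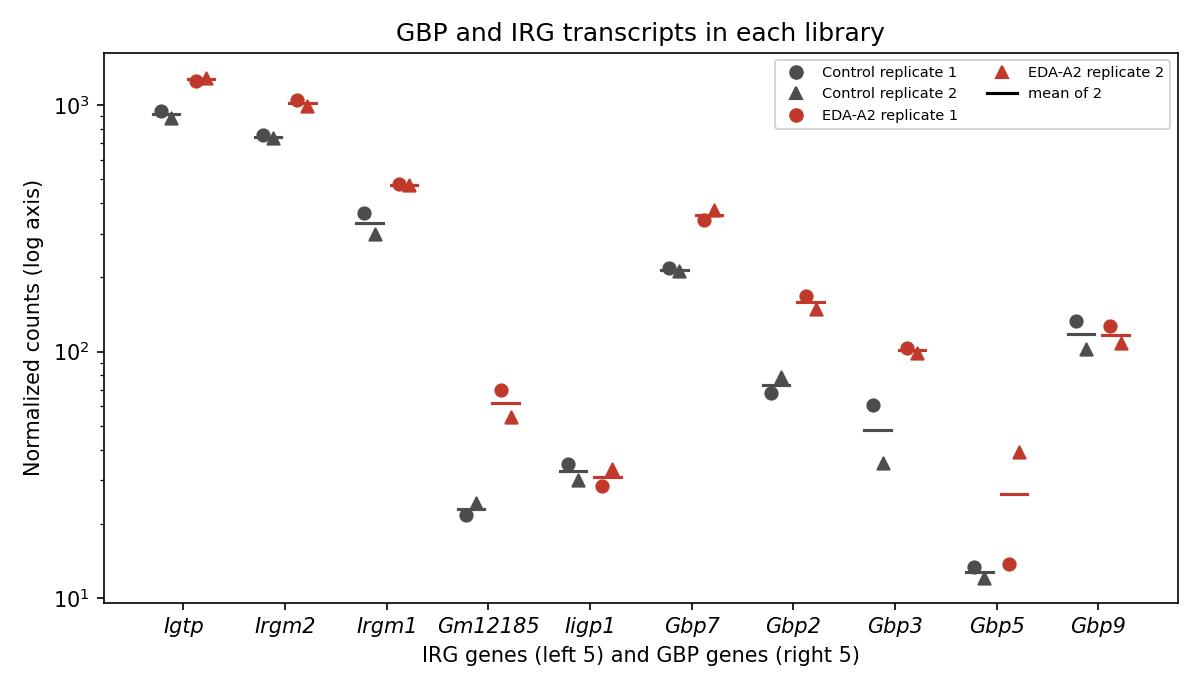
Normalized counts (log axis) of the 5 IRG and 5 GBP genes in each library, with Control in grey, EDA-A2 in red, circles for replicate 1, triangles for replicate 2 and a bar at the mean of the 2 libraries. The EDA-A2 points lie above the Control points in 8 genes and overlap them in Iigp1 and Gbp9.

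The 3 regulators of the IRG family rose together and by similar amounts. Igtp, also known as Irgm3, had 950 and 889 normalized counts in Control and 1257 and 1289 in EDA-A2, where normalized counts are counts scaled to a common library size. Both EDA-A2 libraries were well above both Control libraries, with a log2 fold change of 0.47 (SE 0.08, n = 2 libraries per group) and an adjusted p of 0.00287 by edgeR. Irgm2, which overlaps Igtp on the chromosome, had 759 and 733 normalized counts in Control and 1049 and 995 in EDA-A2. The groups were again apart, with a log2 fold change of 0.45 (SE 0.08) and an adjusted p of 0.00507 by edgeR. Irgm1, which lies elsewhere on chromosome 11, had 364 and 300 normalized counts in Control and 478 and 475 in EDA-A2. The 2 EDA-A2 libraries nearly coincided while the Control libraries differed by 1.21-fold, and the log2 fold change was 0.52 (SE 0.12, adjusted p = 0.0179 by edgeR). The 95% intervals of the 3 regulators, 0.30 to 0.64 for Igtp, 0.27 to 0.63 for Irgm2 and 0.27 to 0.78 for Irgm1, covered nearly the same range.

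The remaining IRG genes did not move alike. Gm12185, an IRG gene that still carries a gene-model name, had the highest fold change of the 10 members, from 21.6 and 24.2 normalized counts in Control to 69.6 and 54.1 in EDA-A2. Both EDA-A2 libraries were above both Control libraries by more than the Control pair differed, with a log2 fold change of 1.43 (SE 0.29, 95% interval 0.80 to 2.05) and an adjusted p of 0.0102 by edgeR. Iigp1, an effector that coats vacuoles, had 35.0 and 30.3 normalized counts in Control and 28.4 and 33.4 in EDA-A2. Its groups overlapped, and the log2 fold change of -0.08 had an interval of -0.74 to 0.59 (SE 0.31, adjusted p = 0.951 by edgeR), so a change of up to 0.59 in the direction of its relatives is within the interval. Iigp1 held an ISRE core before all 4 of its annotated starts and a GAS before 3 of them, in stretches that are not printed above. 

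Among the GBPs, Gbp2, a prenylated member that anchors in membranes, rose 2.17-fold. It had 68.0 and 78.7 normalized counts in Control and 169 and 149 in EDA-A2. The EDA-A2 libraries lay far above the Control pair, with a log2 fold change of 1.11 (SE 0.19, 95% interval 0.71 to 1.52) and an adjusted p of 0.00241 by edgeR. Gbp7 had 217 and 212 normalized counts in Control and 343 and 376 in EDA-A2. It was the GBP with the most counts and the tightest Control pair, and its log2 fold change was 0.75 (SE 0.12, 95% interval 0.48 to 1.01, adjusted p = 0.00232 by edgeR). Gbp3 had 60.8 and 35.3 normalized counts in Control and 104 and 98.3 in EDA-A2. Its Control libraries differed by 1.72-fold, both stayed below the EDA-A2 libraries, and the log2 fold change was 1.07 (SE 0.26, 95% interval 0.53 to 1.62) with an adjusted p of 0.0256 by edgeR and 0.0563 by DESeq2.

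Gbp5 and Gbp9 did not pass the test. Gbp5, another prenylated member, which promotes assembly of the NLRP3 inflammasome, had 13.4 and 12.1 normalized counts in Control and 13.7 and 39.3 in EDA-A2. EDA-A2 replicate 2 alone was high, with replicate 1 barely above Control, and the log2 fold change of 1.05 (SE 0.49, adjusted p = 0.312 by edgeR) dropped to 0.10 without EDA-A2 replicate 2. Gbp9 had 133 and 103 normalized counts in Control and 126 and 108 in EDA-A2. Its groups overlapped almost fully, and the log2 fold change was -0.01 with an interval of -0.42 to 0.41 (SE 0.19, adjusted p = 0.993 by edgeR) and 0.0498 when scaled to total counts. It lies on chromosome 5, apart from the other GBP members on chromosome 3.

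**Figure D2:**
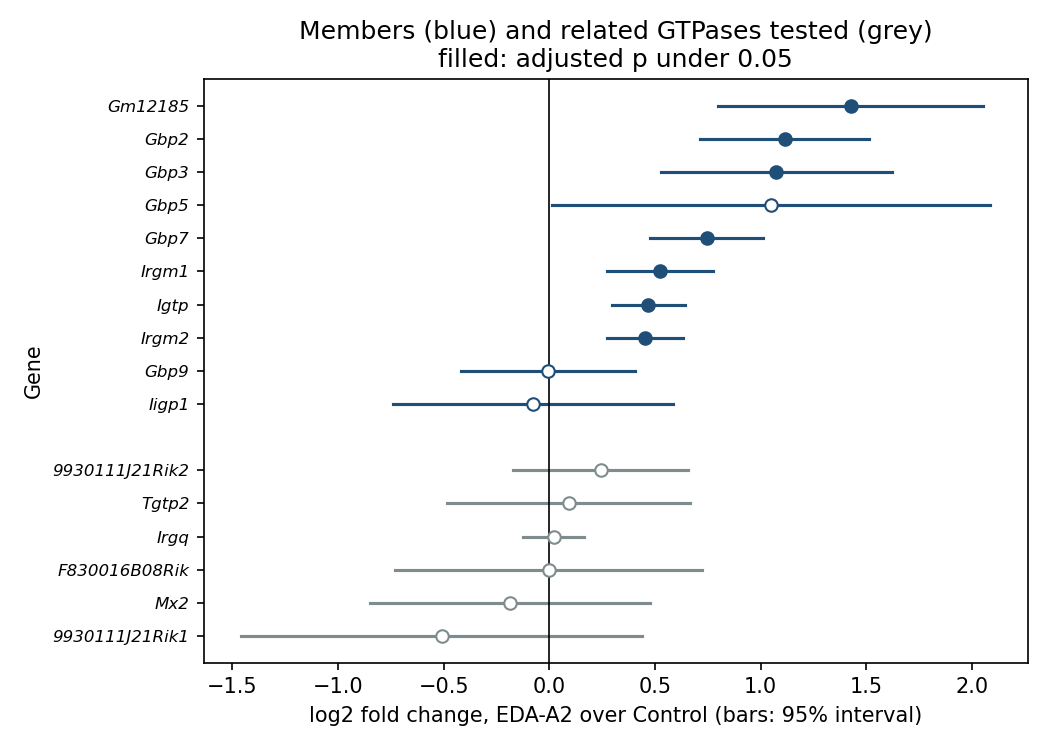
Log2 fold change, EDA-A2 over Control, with 95% intervals for the 10 members (blue) and the 6 related GTPases that could be tested (grey), where filled points have an adjusted p under 0.05 by edgeR. The 7 filled points lie between 0.45 and 1.43, and the related GTPases between -0.51 and 0.24.

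The number of members called changed when a library was left out. Without Control replicate 1 or without Control replicate 2, the lone Control library is assumed to vary like the EDA-A2 pair. No member kept its call in these fits, nor did any other gene of the table. Without either EDA-A2 replicate, the lone EDA-A2 library is treated likewise. Fewer genes of the whole table were then called, and some of the 7 members lost their call. The log2 fold changes of the 7 called members stayed above 0.39 in all 4 fits that left out a library. With every gene of at least 1 count kept, edgeR called 0 members of 25545 genes tested, and 64 genes higher and 22 lower in all. In that fit 7 members had an unadjusted p under 0.05, as did 2264 of all genes tested.

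Fold changes and levels followed different orders. FPKM divides fragments by library size and by the length of all annotated exons of a gene. An order of genes on this scale depends on that length. For Igtp and Irgm1 it was 4557 and 6356 bases. Their canonical transcripts, those marked as representative in the annotation, held only 2186 and 1987 stretches of 100 bases. For Irgm2 it was 3742 bases, with 3389 stretches. An order by canonical transcript was not computed. By FPKM, the Control order was Igtp (6.82), Irgm2 (6.74), Irgm1 (1.76), Gbp7 (1.21), Gbp2 (0.967), Gbp9 (0.412), Gbp3 (0.382), Iigp1 (0.173), Gm12185 (0.136) and Gbp5 (0.0591), each the mean of 2 libraries. The ranges of Igtp and Irgm2 overlapped, as did those of Gbp9 and Gbp3, and the other neighbours in this order were apart in both libraries. In EDA-A2, Igtp (9.44) and Irgm2 (9.22 FPKM) still led with overlapping ranges, followed by Irgm1 (2.53). Gbp2 reached 2.10 FPKM and overlapped Gbp7 at 2.03, and Gbp3 (0.804) stood above Gbp9 (0.410), which overlapped Gm12185 (0.368). Iigp1 (0.164) and Gbp5 (0.123 FPKM) were last and overlapped. Together, Igtp and Irgm2 took 65.2% and 67.1% of the members' counts under Control and 63.4% and 63.1% under EDA-A2, and the 5 GBPs took 18.8%, 18.2%, 20.8% and 21.3%.

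Ratios within a library show how unequal the changes were without any scaling between libraries. The ratio of Gbp2 to Igtp was 0.0716 and 0.0884 in Control and 0.134 and 0.116 in EDA-A2, a log2 difference of 0.65. That of Gbp2 to Gbp9 was 0.512 and 0.765 in Control and 1.33 and 1.38 in EDA-A2, a log2 difference of 1.118. Gbp2 thus went from fewer counts than Gbp9 to more. The ratio of Gbp2 to Gbp7 moved less, from 0.313 and 0.371 to 0.491 and 0.397, a log2 difference of 0.37. That of Gm12185 to Igtp went from 0.0228 and 0.0272 to 0.0554 and 0.0419, a log2 difference of 0.95. Each of these ratios was higher in both EDA-A2 libraries, with an exact two-sided permutation p of 0.333 each, which is the smallest that 2 libraries against 2 can give. The pairs were chosen with earlier results of these data known.

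Part of the reads of these genes cannot be told from those of relatives. Stretches of 100 bases, the read length, were taken from the canonical transcript of each member. Of these, Gbp7 shared 10.1% with Gbp3 or the gene model Gm43802, and Gm12185 shared 9.47% with Tgtp1, Tgtp2 and other IRG copies. Igtp shared 7.04% with Irgm2, Irgm2 3.19% with Igtp, Gbp9 1.55% with Gbp4, Gbp6, Gbp8 and Gm43302, and Gbp3 0.905% with Gbp7. Gbp2, Gbp5, Irgm1 and Iigp1 shared none in that transcript, while the members' other transcripts and read pairs were not searched. By exon position, Irgm2 and Igtp overlap on the same strand over 4.33% and 3.55% of their exon bases, Gm12185 shares 5.58% with Tgtp1 and Gbp7 10.6% with Gm43802. Values of Gm12185, Gbp7, Igtp and Irgm2 carry that uncertainty. Tgtp1, an annotated start of which is the same base as the far start of Gm12185, had counts of 2, 1, 0 and 0 (the Control pair first, then the EDA-A2 pair).

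No other gene of these families that could be tested was called. Of 21 further interferon-inducible or related GTPases listed, 20 were matched by symbol, 6 could be tested and none was called in either direction by edgeR or DESeq2, nor had an unadjusted p under 0.05. Their log2 fold changes ran from -0.51 to 0.24 with a median of 0.01. Tgtp2, the IRG effector whose stretch is printed above, had 60.8 and 42.4 normalized counts in Control and 60.8 and 49.1 in EDA-A2. Its log2 fold change was 0.09 with an interval of -0.48 to 0.67 (adjusted p = 0.926 by edgeR). The 4 genes with the paired motifs thus included 3 that rose and 1 whose groups overlapped. How far the reads of Tgtp2 are shared with those of relatives was not measured. The others tested were the IRG genes 9930111J21Rik1 (-0.51) and 9930111J21Rik2 (0.24), Irgq (0.02), F830016B08Rik (-0.003) and Mx2 (-0.19, an antiviral dynamin-like GTPase). Gbp2b, Gbp10, Gbp11, Gm12250, Gm5431 and Gvin3 were at 0 in all 4 libraries, and Gbp4, Gbp6 and Gbp8, neighbours of Gbp9 on chromosome 5, had 3 to 13 counts each.

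As a further comparison, 14 membrane-remodelling GTPases that are not classed as interferon-inducible (dynamins, mitofusins, Opa1, atlastins and EHD proteins) were all tested. Dnm3, a dynamin, rose from 97.9 and 117 to 190 and 196 normalized counts (log2 fold change 0.84, SE 0.17, adjusted p = 0.00794 by edgeR). Ehd4 (-0.50) and Ehd1 (-0.38), which act in endosome recycling, fell. The median of the 14 was -0.07. Of all genes tested, 2.45% were called higher and 2.13% lower, with a median of -0.0021.

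The members, all annotated as protein-coding, lie in 5 clusters, and neighbouring genes within 500 kb, with members and listed relatives left out, were compared with them (GRCm39 positions). On chromosome 3, Gbp5 (ENSMUSG00000105504, 142199739 to 142228105), Gbp7 (ENSMUSG00000040253, 142236044 to 142255910), Gbp3 (ENSMUSG00000028268, 142265731 to 142278979) and Gbp2 (ENSMUSG00000028270, 142326349 to 142343779) lie on the plus strand within 144 kb, and 3 of these 4 rose. On chromosome 11, Irgm1 (ENSMUSG00000046879, 48752795 to 48763164) and Gm12185 (ENSMUSG00000048852, 48795483 to 48883147), both on the minus strand, span 130.4 kb. Further along it, Igtp (ENSMUSG00000078853, 58089840 to 58098417) and Irgm2 (ENSMUSG00000069874, 58090444 to 58113615), both on the plus strand, overlap and span 23.8 kb. All 4 of these rose. Gbp9 lies alone among the members on chromosome 5 (ENSMUSG00000029298, 105224332 to 105287452, minus strand) and Iigp1 on chromosome 18 (ENSMUSG00000054072, 60506680 to 60525706, plus strand), and neither was called.

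Of 135 neighbouring genes, 38 could be tested, of which 1 was called higher and none lower by edgeR (3 had an unadjusted p under 0.05, and DESeq2 called none), beside 2.45% and 2.13% of all genes tested. Their median log2 fold change was -0.03. For these neighbours, before and after mean lower and higher positions on the chromosome, whichever the strand of the member. None of the 5 tested neighbours on chromosome 3 was called, and their values ran from -0.28 to 0.02. The nearest were Pdlim5, 97.9 kb before Gbp5 (-0.10), and Kyat3, 63.0 kb after Gbp2 (-0.06). Around Irgm1 and Gm12185, none of 10 was called. Trim7, 9.56 kb before Irgm1, had a log2 fold change of -0.01, Or2v1, 58.4 kb after Gm12185, of -0.18, and Psme2b, which lies inside Gm12185, of 0.50 (SE 0.46) on 9 to 15 counts. Ifi47, an IRG gene that was not in the list of relatives and was picked out after its values were seen, lies 84.3 kb after Gm12185 and had 0.03 (SE 0.22). Around Igtp and Irgm2, none of 10 was called, with Mrpl22 (-0.05) 19.4 kb before Igtp and Zfp692 (0.01) 84.3 kb after Irgm2. On chromosome 5, none of 4 was called, the nearest being Zfp951 (-0.01) 216 kb before and Lrrc8b (0.18) 276 kb after Gbp9. The gene called was Cd74, the invariant chain of MHC class II, 411 kb after Iigp1, with 50.5 and 50.4 normalized counts in Control and 89.2 and 108 in EDA-A2 (log2 fold change 0.97, SE 0.23, adjusted p = 0.0228 by edgeR). Smim3 (0.17) was the nearest tested neighbour of Iigp1, 81.6 kb after it.

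**Figure D3:**
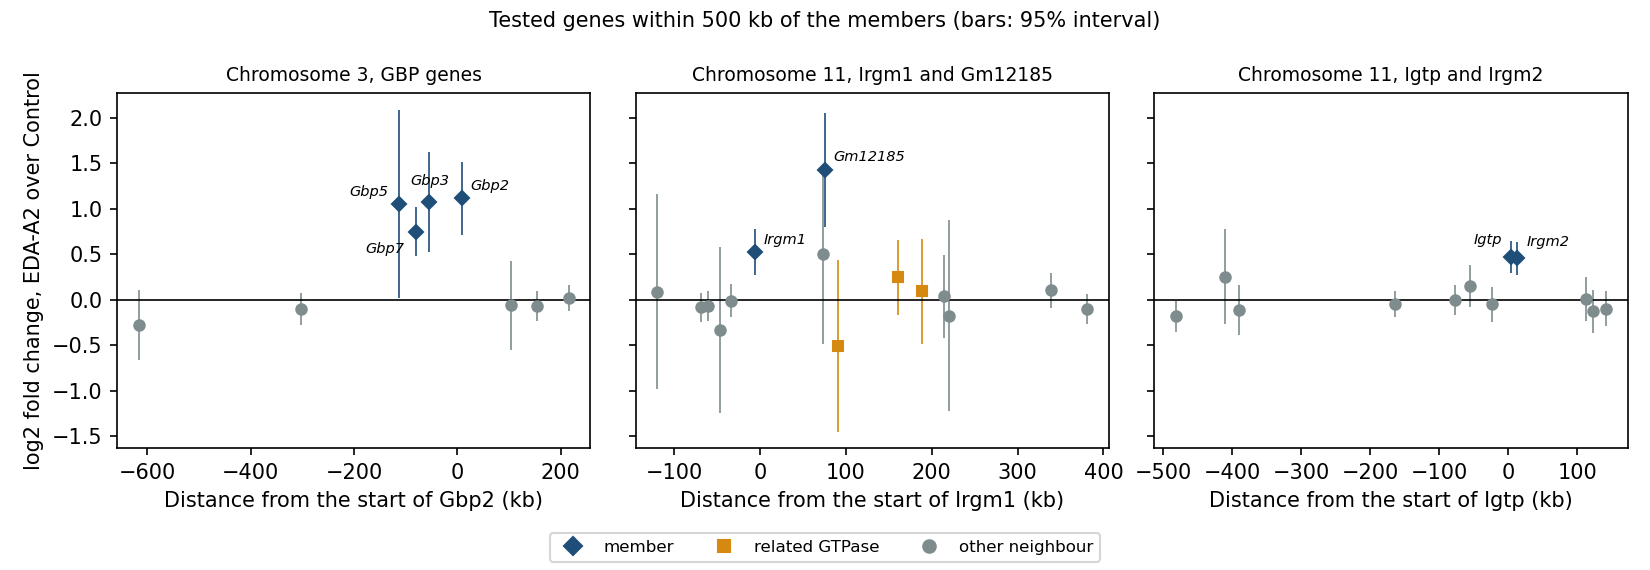
Log2 fold change, EDA-A2 over Control, with 95% intervals for tested genes around 3 member clusters, against the distance of each gene's midpoint (kb) from the start of Gbp2, Irgm1 or Igtp. Members (blue diamonds) lie at 0.45 to 1.43, while the neighbours (grey circles) and related GTPases (orange squares) lie between -0.51 and 0.50.

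The pathway that controls these GTPases was read in 4 lists of 29 genes in all, of which 20 were tested. By edgeR, 6 rose and none fell, beside 2.45% called higher and 2.13% called lower of all genes tested. The median log2 fold change of the 20 was 0.17, and that of all genes tested was -0.0021. None of the 7 interferon ligands listed reached the filter. Ifna4 was the only interferon-alpha gene among them, and the others were not looked up. Ifng, the main inducer of both families, had counts of 0, 0, 1 and 0, Ifne had 2, 0, 2 and 0, and Ifnb1, Ifna4, Ifnk, Ifnl2 and Ifnl3 were at 0 in all libraries. These are transcripts of the cultures themselves, and the protein in the medium was not measured here.

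Receptors and their kinases rose in 5 of 9 genes, and all 9 log2 fold changes were above 0. Ifngr1, the ligand-binding chain of the interferon-gamma receptor, went from 1087 and 1075 to 1701 and 1866 normalized counts. Both EDA-A2 libraries were far above the near-equal Control pair (log2 fold change 0.72, SE 0.08, adjusted p = 5.73e-05 by edgeR). Ifngr2, its signalling chain, rose by a log2 fold change of 0.50 (SE 0.09), Jak2, the kinase bound to Ifngr2, by 0.41 (SE 0.08), Tyk2, a kinase of the type I receptor, by 0.78 (SE 0.09), and Ifnar1, a chain of that receptor, by 0.29 (SE 0.08). Ifnar1 had an adjusted p of 0.0411 by edgeR and 0.0845 by DESeq2.

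Of 7 transcription factors, 5 were tested and 1 rose. Irf1, which binds ISRE cores and is needed for full GBP induction, went from 617 and 656 to 1363 and 1293 normalized counts. The groups were far apart relative to each pair, with a log2 fold change of 1.06 (SE 0.08, adjusted p = 2.84e-06 by edgeR). Irf2 had 0.35 (SE 0.11, adjusted p = 0.0985 by edgeR), and Irf9 (-0.32), Irf7 (-0.15) and Stat2 (-0.07) were not called either. None of 6 inhibitors of the pathway was called by edgeR or DESeq2, and 1 (Ptpn2) had an unadjusted p under 0.05, with log2 fold changes of -0.25 to 0.19. They included Ptpn2 (0.19), Ptpn6 (-0.25), Socs1 (-0.24), Usp18 (0.14) and Pias1 (-0.02).

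**Figure D4:**
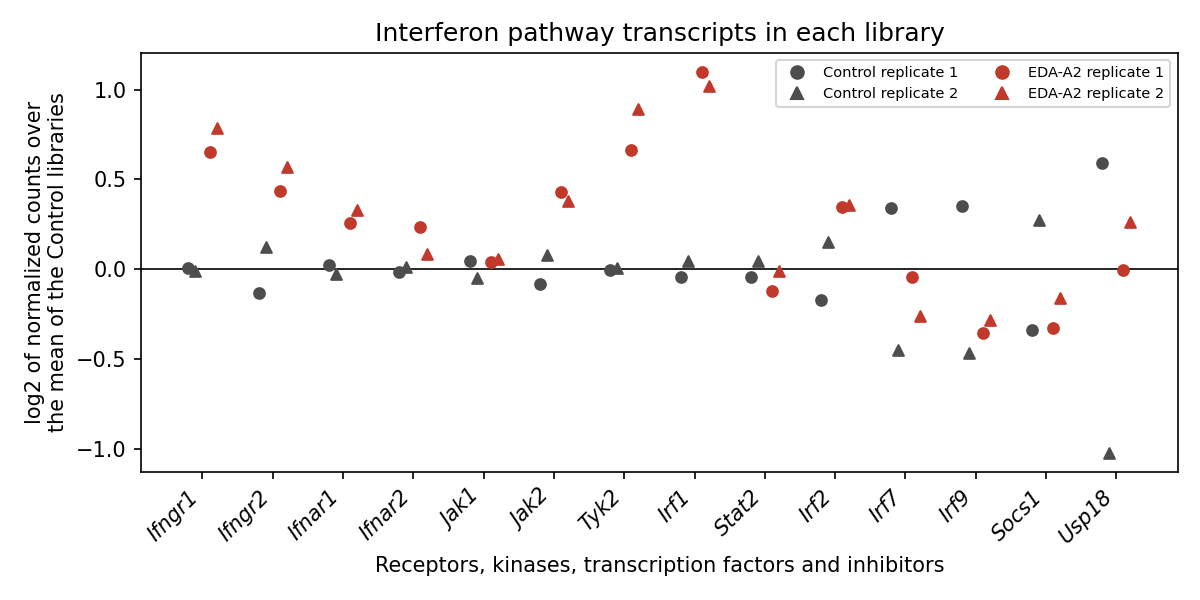
Log2 of normalized counts over the mean of the Control libraries for 14 interferon pathway genes in each library, with Control in grey, EDA-A2 in red, circles for replicate 1 and triangles for replicate 2. Irf1, Ifngr1 and Tyk2 have both EDA-A2 points far above both Control points, while in Irf7, Irf9 and Usp18 Control replicate 1 lies above Control replicate 2 and EDA-A2 lies between them.

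The Control libraries themselves differed in several interferon-stimulated genes, by more than most members did. Control replicate 1 was 3.07-fold above replicate 2 for Usp18, 1.83-fold for Mx2, 1.76-fold for Irf9 and 1.73-fold for Irf7, genes picked out after their values were seen. Others went the other way, with Socs1 at 0.653 and Ifnlr1 at 0.645 of replicate 2, and replicate 1 was above in 2 of the 5 interferon transcription factors tested. Among the members it was above replicate 2 in 8 of 10, where 49.9% of all genes tested were, with the widest gap in Gbp3 (1.72-fold). Gbp2 and Gm12185 went the other way, with replicate 1 at 0.865 and 0.894 of replicate 2.

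Genes of proteins that work with the GTPases were read from 3 lists of 28 genes, of which 24 were tested and none was called by edgeR or DESeq2. An unadjusted p under 0.05 was found in 7 of the 24, beside 2372 of all 15173 genes tested. The median log2 fold change of the 24 was 0.05. In the autophagy-like machinery that steers IRGs and GBPs to vacuoles, 13 of 13 were tested, and the smallest p-values were those of Map1lc3a (-0.20), Gabarapl1 (-0.18), Traf6 (0.14), Atg16l1 (-0.13) and Atg12 (0.11). Among inflammasome genes, Gsdmd, the pore-forming gasdermin, had 110 and 141 normalized counts in Control and 176 and 192 in EDA-A2 (log2 fold change 0.55, SE 0.17, adjusted p = 0.0923 by edgeR), Il18 had 0.50 (adjusted p = 0.234 by edgeR), Casp4 0.29, Pycard -0.25 and Aim2 0.30. Nlrp3, Nlrc4, Casp1 and Il1b had at most 5 counts in any library. Of the enzymes that prenylate or process proteins such as Gbp2 and Gbp5, Zmpste24 had 0.16, Pggt1b 0.17, Icmt 0.13, Rce1 -0.15 and Fntb -0.08.

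Eda2r, the receptor of EDA-A2, had 7024 and 7685 normalized counts in Control and 8732 and 9951 in EDA-A2 (log2 fold change 0.35, SE 0.08, adjusted p = 0.0179 by edgeR). The 5 genes whose centred log2 CPM profile over the 4 libraries lay closest to the mean profile of the members, by Euclidean distance, were C3 (0.0245), Panx1 (0.0465), Vegfc (0.0566), Gadd45b (0.0579) and Stx11 (0.0605). C3, the central complement component, had 140 and 129 normalized counts in Control and 199 and 209 in EDA-A2. Panx1 had 602 and 546 against 863 and 884, and Stx11, a syntaxin, 1470 and 1404 against 2120 and 2102. The log2 fold changes of the 5 were 0.49 to 0.61.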

How the data were processed

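RNA-seq counts of 4 libraries of primary myotubes were used. Per the submitters' processing notes and the study's methods, the authors trimmed reads with Trim Galore 0.6.5, mapped them to GRCm39 with STAR 2.7.3a and deposited unnormalized counts of read pairs per Ensembl gene from HTSeq 0.11.1, with libraries kept separate. The annotation release and strand option are not given in the sources used here, although the kit was stranded. Pairs that HTSeq assigned to no gene were left out of library sizes: 6.68% to 7.40% fell outside genes, 0.946% to 0.986% were ambiguous and 4.56% to 4.76% did not map uniquely.

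Symbols and positions came from GENCODE, which matched 52610 of 53647 IDs, and sequences from the GRCm39 genome. Counts were fitted in R 4.3.3 with edgeR 4.0.16 (TMM, filterByExpr with a minimum count of 10 and minimum total of 15, quasi-likelihood F test, condition only), with Benjamini-Hochberg adjustment over 15173 genes and a threshold of 0.05. SE is the log2 fold change over the root of F. FPKM was computed here from counts and the length of all annotated exons of a gene. Alternatives were other size factors, other filters, DESeq2 1.42.0, a replicate block and leaving out each library. In simulated counts with 200 of 15173 genes changed by 1 on the log2 scale in EDA-A2 against Control, edgeR recovered 88% and DESeq2 78.5%. They called 4 and 2 unchanged genes. The simulation gave all genes the same dispersion and did not include smaller changes, such as those of Igtp, Irgm1 and Irgm2.

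The members, lists and tests were chosen with earlier results of these data known. Named were all members, tested relatives, the nearest tested and the called neighbours, up to 5 genes per other list by smallest p, Eda2r and the 5 closest profiles. Exceptions are named as such, apart from cell type markers and genes with few or no counts, which were also named. A gene of the interferon lists is not reported here.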

Additional observations from a re-analysis of the deposited data

How the results depend on the processing

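With 2 libraries per group, the direction of the 7 members that rose was kept in all 10 alternatives, and the number called was 7 with other size factors (RLE or total counts), with at least 10 counts in every library and with a replicate block, and 6 with DESeq2, where Gbp3 missed the threshold. Without a filter beyond 1 count, edgeR called 0 members and 0 neighbours of 25545 genes tested, and 2 interferon pathway genes, all higher. An unadjusted p under 0.05 was found in 7 members and in 2264 of all genes in that fit. The cause was not tested. Leaving out 1 library gave 0 to 5 members, 0 to 1 neighbours and 0 to 5 interferon pathway genes called (0 to 5 higher), the lowest without either Control replicate, when no gene of the table was called. The median log2 fold change of the members was 0.69 with total counts, which moved the median of all genes to 0.05, and 0.51 to 0.72 when 1 library was left out. DESeq2 called 0 neighbours, with Cd74 lost.

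The replicate numbers share only a number: the correlation of replicate differences between groups was 0.0828. With the replicate block edgeR called 537 genes higher and 529 lower in place of 371 and 323, the same 7 members and 1 partner gene (1 higher, Gsdmd, log2 fold change 0.55, adjusted p = 0.0474). Irf2 passed as well (adjusted p = 0.031), and F830016B08Rik turned to 0.0049.

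Other sign changes were of genes near 0 that were not called. With total counts they were Gbp9 (0.0498), F830016B08Rik (0.0525), Socs3 (0.0503), Pias1 (0.0357), Gabarap (0.0078) and Fnta (0.0389). Leaving out 1 library, log2 fold changes ran from -0.18 to 0.19 for Gbp9, -0.20 to 0.0351 for Iigp1, -0.26 to 0.31 for F830016B08Rik, -0.56 to 0.31 for Mx2, -0.14 to 0.38 for Tgtp2, -0.0062 to 0.0482 for Irgq, -0.0152 to 0.62 for Ifnlr1, -0.49 to 0.30 for Irf7, -0.67 to 0.15 for Irf9, -0.51 to 0.10 for Socs1, -0.0455 to 0.0415 for Socs3, -0.46 to 1.15 for Usp18, -0.12 to 0.0903 for Pias1, -0.0218 to 0.15 for Atg5, -0.0298 to 0.13 for Atg3, -0.11 to 0.0279 for Gabarap, -0.0353 to 0.0541 for Sqstm1 and -0.10 to 0.0729 for Fnta. Gbp5 and Iigp1 had 12 to 40 counts per library.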
